A study of Mus musculus with 4 samples.

Results

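Early hair shaft keratinizing spots of mouse dorsal skin were described from spatial transcriptomics. They were the 642 spots, of 6411 with at least 250 genes, that had the highest 10% of a 7-gene score in their slice. The score was the mean over Vsig8, Capn12, Ly6g6d, S100a3, Krt32, Krt83 and Krt87 of ln(1 + 10000 × UMIs of the gene / UMIs of the spot), where a unique molecular identifier (UMI) marks 1 captured transcript. Members numbered 165, 175, 156 and 146 in slices 1 to 4, of 1649, 1751, 1555 and 1456 kept spots.

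All skin came from 3 Krox20-CreERT; R26-tdTomato mice that had received 4-hydroxytamoxifen at P2 and were sampled at P38, and no other genotype or untreated group was part of the spatial data. CreERT is knocked in at the Krox20 locus behind a linker meant to keep Krox20 working, zygosity is not given in the sources used here, and tdTomato marks cells that had Cre activity at induction and their progeny. Each of the 4 slices held 1 fresh-frozen dorsal section per mouse, so the slices are technical replicates of the same 3 mice, and every SD and p-value below covers the spread between slices only. One more section was dropped by the authors because its structure was distorted, per the paper's text, and since it is not clear whether its spots are in the deposited slices, the values here, from all spots of the 4 slices, may include it. Slices held 26910422, 24128004, 21384253 and 19393026 UMIs, with a median of 12618 per kept spot. Of 2485 distinct barcodes, 1842 occurred in at least 2 slices and 750 in all 4, since a barcode is a position on the capture grid and not a cell. Each spot covers more area than 1 cell, so cell types may be mixed in it, and fewer cells of a type cannot be told apart from less RNA per cell.

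A hair shaft forms when cells leave the dividing matrix of the anagen follicle, move up and fill with hair keratins, which pair as type I and type II filaments. Keratin-associated proteins (KAPs) then embed the filaments, with high-glycine-tyrosine, high-sulfur and ultra-high-sulfur classes that differ in tyrosine and cysteine content. The inner root sheath (IRS) keratinizes around the shaft at the same levels of the follicle, and its cells fill with trichohyalin. Hair keratin genes respond to WNT and BMP signals through factors such as LEF1, HOXC13 and FOXN1, and both the shaft and the IRS are hardened by transglutaminases and peptidylarginine deiminases.

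The promoters of Krt34 and Krt33b, a pair of type I hair keratin genes with higher counts in members, are shown because hair keratin promoters are known for TATA boxes and LEF1 sites. They had the most UMIs in members among the higher hair keratins with an entry in the promoter table. Each run is the 250 bases before the transcription start (RefSeq, GRCm38.p6, minus strand, 5′ to 3′), Krt34 at chr11:100041555-100041804 and Krt33b at chr11:100029869-100030118, with TATAAA and CTTTGAA in capitals.
Krt34: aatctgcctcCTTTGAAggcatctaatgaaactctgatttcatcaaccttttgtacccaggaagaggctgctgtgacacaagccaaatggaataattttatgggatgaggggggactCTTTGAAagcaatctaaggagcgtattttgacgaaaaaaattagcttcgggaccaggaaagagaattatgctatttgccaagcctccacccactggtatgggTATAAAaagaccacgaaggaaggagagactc
Krt33b: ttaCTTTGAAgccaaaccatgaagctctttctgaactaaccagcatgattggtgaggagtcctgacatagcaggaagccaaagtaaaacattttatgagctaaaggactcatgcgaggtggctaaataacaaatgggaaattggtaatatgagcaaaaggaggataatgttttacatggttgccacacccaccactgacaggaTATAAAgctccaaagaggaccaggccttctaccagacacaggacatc
TATAAA lay at -31 to -26 of the Krt34 start and at -47 to -42 of the Krt33b start. CTTTGAA lay at -240 to -234 and -133 to -127 before Krt34 and at -247 to -241 before Krt33b. Both strands were searched for TATAAA and for 4 LEF1/TCF words (CTTTGAA, the variant CTTTGAT, the variant CTTTGTA and the variant CTTTGTT), and no printed site overlaps another. Of the 10 hair keratins that were higher in members, 7 had a promoter entry, and each motif was present in 4 of the 7 (57.1%). Among the 16 KAPs that were higher, 12 had an entry, with TATAAA in 9 (75.0%) and a LEF1/TCF word in 7 (58.3%). Over all 27025 genes of the table, 12.97% of windows held TATAAA and 14.9% a LEF1/TCF word. A match is a description of these letters and not a binding site.

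The score genes chose the members and are given as values only. In counts per 1000000 UMIs (CPM) of the spots summed by slice, S100a3, a calcium-binding protein of the hair cuticle, was at 9382 ± 803 (SD, n = 4 slices) in members and 1884 ± 280 in the other kept spots. Krt83, a type II hair keratin, was at 8871, 7612, 6305 and 5018 in members of slices 1 to 4. Krt87 was at 5431 ± 127, Vsig8 at 1485 ± 86.2 and Krt32, a type I keratin of the shaft cuticle, at 726 ± 79.0 in members. Capn12, a calpain protease, was at 249 ± 43.2 and Ly6g6d at 223, 526, 411 and 281 in members. Relative to its level Ly6g6d differed most between slices and Krt87 least, and Krt83 had the widest range in CPM. The lowest member and the highest other spot had scores of 2.35 and 2.34 in slice 1, 2.35 and 2.35 in slice 2, 2.34 and 2.34 in slice 3, and 2.16 and 2.15 in slice 4. A cut at a fixed share puts near-equal scores on both sides in any case. These values therefore do not show whether members are a separate class or the upper end of a continuous score. With the score of the 4 genes that are not keratins, 573 of 642 members (89.3%) were the same spots, and with the 3 keratins 563 (87.7%).

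**Figure D1:**
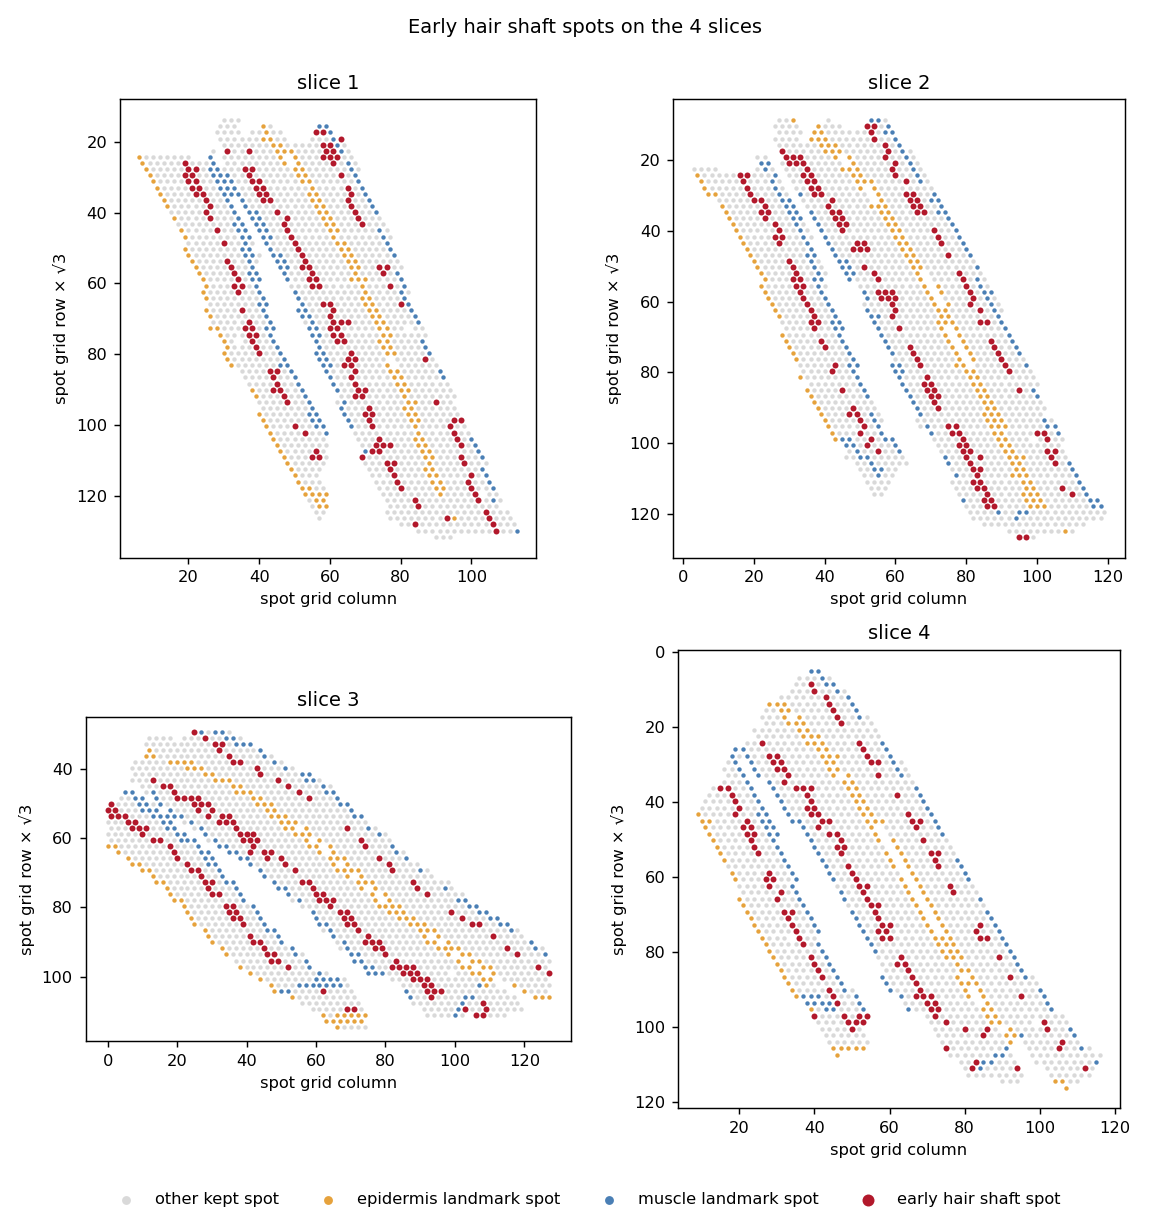
Positions of the kept spots on the capture grid, 1 panel per slice, axes in grid columns and rows. Members are red, the epidermis landmark spots orange, the muscle landmark spots blue and the other spots grey. Members form small patches between the epidermis and the muscle bands.

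Members lay deep in the skin. Grid steps were counted to the nearest landmark spot, which was a spot in the top 10% of its slice by a score of 5 epidermis genes or of 7 muscle genes. The mean distance of members to the epidermis landmark was 5.19, 5.15, 4.68 and 5.05 steps in slices 1 to 4, and that of the other spots 3.90, 4.08, 3.51 and 3.80 steps. Members were farther from the epidermis in all 4 slices, by 1.20 steps on average (exact sign-flip permutation test over slices, two-sided p = 0.125, the smallest that 4 slices allow). Landmark spots are at 0 steps by construction, and with them left out of both sets the difference was 0.73 steps, again in 4 of 4 slices. Distance to the muscle landmark, in the layer under the follicle bulbs, was 2.94 ± 0.168 steps in members and 3.87 ± 0.343 in other spots, again with 4 of 4 slices in 1 direction and the same exact p of 0.125. The difference to muscle was -0.93 steps, and -1.40 without the muscle landmark spots. Members formed 38, 37, 44 and 37 patches of touching spots, and the largest held 15, 23, 17 and 17 spots. Between 86.5% and 93.7% of the members of a slice had a member as neighbour, and 17, 11, 21 and 13 members stood alone.

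Member spots also held more RNA. Their median UMI count was 18836, 14461, 13453 and 13109 in slices 1 to 4, against 14162, 11552, 11716 and 11530 in other spots. A median of 3842 ± 218 genes was detected in members and 3673 ± 199 in other spots, with slice 1 members at 4168 standing above the other slices. Mitochondrial genes took 3.16% ± 0.642 of the UMIs in members and 4.60% ± 0.749 in other spots. All 3 measures had the same direction in 4 of 4 slices (exact sign-flip permutation p = 0.125 each, the smallest possible), and the groups of slices overlapped in each. The part of depth in the gene results was tested only by thinning spots to 5500 UMIs, which left out 24 members and 539 other spots with fewer.

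Gene levels were compared between members and all other kept spots of the same slice with edgeR's quasi-likelihood test on summed counts, with the slice as a block, and a gene was called at an adjusted p of at most 0.05 and a log2 fold change of at least 1 in size. Of 13576 genes tested, 967 were higher (7.12% of all) and 1323 lower (9.75%) in members. The members were picked on counts of these same spots, so genes that vary with the score genes were bound to differ, and each list below is read beside these shares. The direction was the same in all 4 slices for 933 of the higher and 1320 of the lower genes, and the slices' CPM did not overlap for 882 and 1299. With library size alone in place of TMM scaling, 580 genes were higher and 2147 lower, so the share of higher calls went from 42.2% to 21.3%. The median log2 fold change of all genes was -0.04 with TMM and -0.34 without. Printed CPM carry no TMM scaling, so a fitted fold change differs from the ratio of the CPM beside it.

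Hair keratins were higher almost as a family. Of 7 type I hair keratins tested, 6 were higher, with a median log2 fold change of 1.99, and all 4 type II hair keratins tested were higher (median 2.11). Krt33a, a keratin of the shaft cortex (chr11:100011195-100016212), was at 7908, 6626, 6013 and 6456 CPM in members and 1775, 1169, 1097 and 1020 CPM in other spots. Its log2 fold change was 2.74 ± 0.05 (SE; edgeR adjusted p = 4.66e-20), and the lowest member slice stood far above the highest slice of other spots. Krt33b was at 3128, 2627, 2073 and 1689 CPM in members and 773, 458, 369 and 284 in other spots (log2 fold change 2.69 ± 0.07). Krt31 was at 1750, 1825, 1273 and 725 CPM against 439, 356, 234 and 129 (2.61 ± 0.06). In both sets of spots these genes were lowest in slice 4, other than Krt33a in members, which was lowest in slice 3, and the slices of the groups did not overlap. Krt34 was at 4299, 3834, 3076 and 2479 CPM against 1535, 1006, 924 and 796 (1.99 ± 0.06), and Krt36 at 64.5 ± 3.13 against 31.3 ± 3.19 CPM (1.33 ± 0.08). Krt39, a cuticle keratin with few UMIs, had a log2 fold change of 1.32 ± 0.31 with slices that overlapped, at 3.56 ± 1.63 and 1.69 ± 0.464 CPM. Krt40 had too few UMIs to be tested. Krt85, a type II hair keratin on the list, was not found by that symbol among the features and has no value here.

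Krt35, a type I hair keratin of the matrix and lower shaft, stood apart from the others of its type. It was at 346, 329, 386 and 352 CPM in members and 463, 455, 445 and 392 CPM in other spots, so each member slice was below each slice of other spots. After TMM scaling the log2 fold change was -0.02 ± 0.06 (edgeR adjusted p = 0.834), and Krt35 did not pass the test.

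Among the type II hair keratins, Krt81, a cortex keratin (chr15:101459061-101463751), was at 4740, 5181, 4317 and 4225 CPM in members and 1160, 890, 802 and 730 CPM in other spots (log2 fold change 2.68 ± 0.06, edgeR adjusted p = 1.97e-19). Krt86 was at 3769, 3031, 2197 and 2136 CPM against 1302, 720, 659 and 645 (2.06 ± 0.07). Krt82, a keratin of the shaft cuticle, was at 27.9, 32.9, 28.0 and 33.4 CPM against 8.13, 9.35, 9.20 and 6.83 (2.15 ± 0.12). None of these 3 overlapped between the groups. Krt84 was at 155, 115, 104 and 75.5 CPM against 71.6, 57.9, 74.4 and 63.1 (1.07 ± 0.11), a margin that slice 4 nearly closed. Its call was lost with library size alone, at 0.76, and without slice 1, at 0.89, or slice 2, at 0.99. Near-identical sequence limits these values, since 9 of 15 hair keratins, score genes included, shared 90-base windows with another listed gene. For Krt81 and Krt86, 9.01% and 8.32% of the windows were also in a score gene, and for Krt31 and Krt34 15.95% and 20.1% of the windows were shared with any listed gene.

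**Figure D2:**
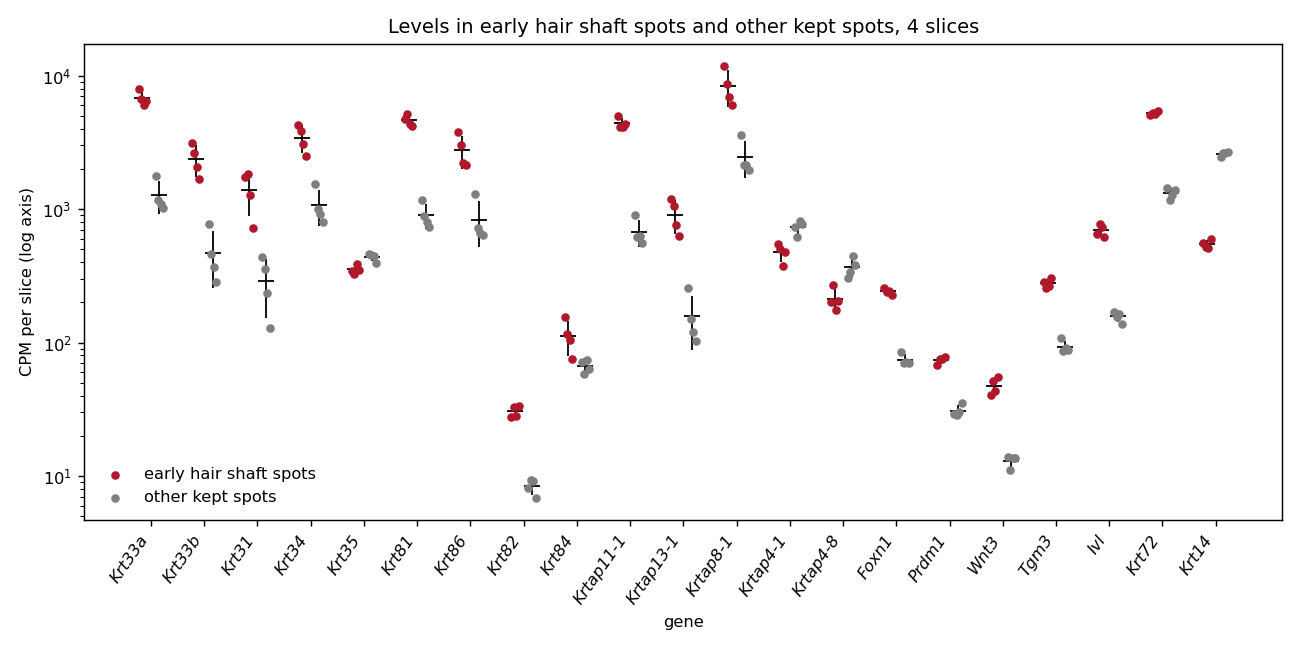
CPM per slice (log axis) of 21 genes in members and in other kept spots, with points for slices and bars for the mean ± SD. Hair keratins, Krtap11-1, Foxn1, Wnt3 and Ivl separate the groups, Krt35 and Krtap4-8 lie lower in members, and Krt14 is far lower.

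KAPs split by class. Of 15 high-sulfur KAPs tested, 11 were higher and none lower (median log2 fold change 1.25). Only 3 of 15 high-glycine-tyrosine KAPs (median 0.33) and 2 of 13 ultra-high-sulfur KAPs (median -0.31) were higher, and none of these was lower. Krtap11-1, a high-sulfur KAP at the end of the chromosome 16 cluster (chr16:89570176-89571183), was at 4940, 4137, 4088 and 4365 CPM in members and 902, 618, 630 and 555 CPM in other spots (log2 fold change 3.01 ± 0.06, edgeR adjusted p = 3.64e-20). Krtap13-1 was at 1198, 1046, 760 and 632 CPM against 255, 150, 120 and 103 (2.88 ± 0.07). Both genes were higher in every member slice than in any slice of other spots. Krtap26-1 and Krtap24-1 had log2 fold changes of 2.55 and 2.54, and Krtap2-4, at 0.15, did not pass the test.

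In the high-glycine-tyrosine class, Krtap8-1 and Krtap7-1 carried the difference. Krtap8-1 was at 8394 ± 2573 CPM in members and 2466 ± 764 in other spots (log2 fold change 2.06 ± 0.06). Krtap7-1 was at 8105, 6198, 4038 and 2844 CPM against 2274, 1357, 1046 and 861 (2.22), and its level in members of slice 4 was far below that in slice 1. The third was Krtap22-2 (1.403), whose slices overlapped. With library size alone the class median was 0.03. Of the ultra-high-sulfur class, Krtap17-1 was higher, at 1239, 1115, 855 and 936 CPM against 458, 344, 339 and 366 (1.75), and Krtap9-3 had a log2 fold change of 1.10, which was 0.94 without slice 2 and then no call. Krtap4-1 and Krtap4-8, at -0.33 and -0.48, were not called, although 10 of the 13 genes of the class were lower at an unadjusted p under 0.05. Of 50 KAPs, 17 shared 90-base windows with another listed gene and 0 with a score gene, and Krtap3-3 shared 37.7% of its windows.

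Genes that harden the cell and genes that break down its DNA had calls in both directions. Of 9 tested genes of protein crosslinking and citrullination, 6 were higher and 2 lower. Tgm3, a transglutaminase of the hair shaft and IRS, was at 285, 258, 267 and 306 CPM in members and 108, 86.0, 90.4 and 87.2 CPM in other spots (log2 fold change 1.88 ± 0.06). Padi3, which citrullinates trichohyalin, was at 1514, 1635, 1828 and 1586 CPM against 602, 554, 621 and 602 (1.76). Neither gene overlapped between the groups. Padi4 (1.84), Tgm6 (1.70), Padi1 (1.28) and Tgm1 (1.17) were also higher, and Tgm2 (-1.43) and Padi2 (-1.40) were lower, the latter not without slice 1 (edgeR adjusted p = 0.13) or slice 2 (adjusted p = 0.15). Of 4 genes of DNA breakdown, 2 were higher, 1 lower and 1 not called. Dnase1l2, an enzyme that removes nuclear DNA from keratinizing cells, was at 479, 428, 403 and 402 CPM against 167, 125, 119 and 117 (2.00). Trex2, another nuclease, was higher by 1.65 and Casp14, a caspase of epidermal cornification, lower by -1.45 on the log2 scale.

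Of 8 other hair shaft genes, 6 were higher and 1 lower. Gprc5d, an orphan receptor of keratinizing hair cells, was at 2372, 2100, 1765 and 1543 CPM in members and 585, 407, 334 and 291 CPM in other spots (log2 fold change 2.59 ± 0.06). Mt4, a metallothionein of differentiating epithelia, was at 2814, 1936, 1485 and 1017 CPM against 703, 480, 345 and 260 (2.32 ± 0.05), and its order over slices was the same in both groups. Psors1c2 (2.43), Hephl1 (2.00), a ferroxidase needed for normal hair, Crym (1.80) and Prr9 (1.62) were higher and Ly6g6c (-1.13) was lower. In cysteine and disulfide metabolism, 3 of 12 genes were higher: Cth, which releases cysteine from cystathionine (1.62), Slc7a11, a cystine importer (1.31), and Txnrd1, a thioredoxin reductase (1.26). Of 12 desmosome genes, Dsc1 (1.35) and Pkp3 (1.20) were higher, and 10 were not called.

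**Figure D3:**
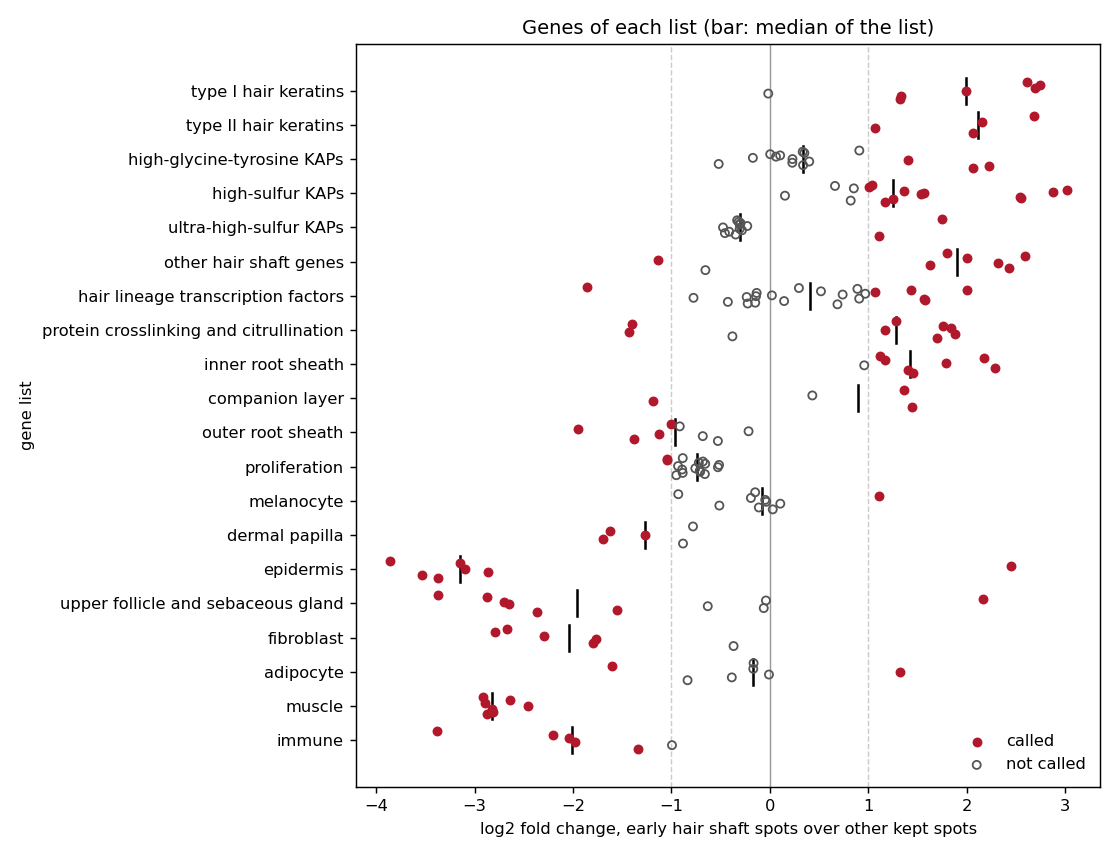
Log2 fold change (members over other kept spots) of each tested gene in 20 lists, red where called, open where not, with a bar at the list median. Hair keratins other than Krt35 (-0.02), high-sulfur KAPs and IRS genes lie to the right of 0. Muscle, fibroblast and epidermis genes lie to the left, with Ivl as the epidermis gene on the right.

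Of 22 hair lineage transcription factors tested, 5 were higher and 1 lower (median log2 fold change 0.41). Foxn1, the factor lost in nude mice, was at 255, 241, 242 and 229 CPM in members and 85.0, 69.8, 71.9 and 69.9 CPM in other spots (2.00 ± 0.06). Prdm1, a repressor active in terminal differentiation, was at 74.1 ± 4.59 against 30.8 ± 3.11 CPM (1.57 ± 0.07). Ovol1 was at 239, 247, 274 and 265 CPM against 106, 103, 109 and 107 (1.56). Foxq1, mutated in satin mice, was at 149 ± 23.7 against 67.4 ± 9.36 CPM (1.44), and Grhl1, a regulator of desmosomal cadherins, had a log2 fold change of 1.07. Bcl11b was lower (-1.86 ± 0.21). Hoxc13, a direct activator of hair keratin genes, at 273 ± 43.9 against 199 ± 12.4 CPM (0.74), Msx2 (0.91), Lef1 (-0.24) and Msx1 (-0.78) did not reach the fold needed for a call.

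The WNT and BMP pathways had calls in both directions. Of 26 WNT pathway genes tested, 7 were higher and 1 lower (median log2 fold change 0.10, and -0.20 with library size alone). Wnt3a, a ligand of the canonical pathway, was at 12.98, 21.95, 18.6 and 25.3 CPM in members and 3.66, 3.18, 4.15 and 4.94 CPM in other spots (2.59 ± 0.16). Wnt3 was at 40.2, 51.2, 43.2 and 55.2 CPM against 13.9, 11.1, 13.6 and 13.7 (2.15 ± 0.11). Neither ligand overlapped between the groups. Nkd1, an inhibitor of the pathway (1.61), the ligands Wnt5a (1.30) and Wnt11 (1.26), the factor Tcf7 (1.16) and Nkd2 (1.08) were also higher. The ligands Wnt10b (-0.81), Wnt10a (-0.19) and Wnt4 (-0.14) were not called. Lgr6, a receptor for R-spondins (-1.09, and -0.98 without slice 4, which was no call), was lower, and Axin2, a target of the pathway (-0.06, edgeR adjusted p = 0.775), did not pass the test. In the BMP pathway, 4 of 19 tested genes were higher and 3 lower. The ligand Bmp2 (1.56 ± 0.09) and the inhibitors Bambi (1.498), Smad7 (1.47) and Smad6 (1.37) were higher, whereas the antagonists Grem1 (-2.74 ± 0.63) and Fst (-1.96) and the receptor Bmpr1b (-2.02) were lower. None of 15 Notch pathway genes was called by edgeR or DESeq2, with 2 higher and 4 lower at an unadjusted p under 0.05.

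Markers of neighbouring layers were counted in the same comparison. Of 8 IRS genes tested, 7 were higher (median log2 fold change 1.43). Krt72, an IRS keratin, was at 5031, 5240, 5188 and 5411 CPM in members and 1442, 1171, 1278 and 1395 in other spots (2.28 ± 0.05). Tchh (trichohyalin) was at 25757 ± 1715 against 11571 ± 1079 CPM (1.45 ± 0.04). Krt71 had a log2 fold change of 0.96 and fell short of a call. Summed over the list, IRS genes took 66332 ± 1911 CPM in members and 31894 ± 1802 in other spots. Companion layer keratins Krt75 (1.44) and Krt16 (1.36) were higher, and Krt6a (-1.18) was lower. The members thus carried IRS RNA beside hair shaft RNA, and the name of the spots tells which genes chose them and not a single cell type. The part of IRS cells in the results was not tested beyond the comparison with IRS spots.

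Muscle, fibroblast and immune genes were lower in members. All 7 muscle genes tested (median log2 fold change -2.83), 5 of 6 fibroblast genes (-2.04), 5 of 6 immune genes (-2.01) and 3 of 5 Schwann genes (-1.38) were lower, and none of these lists had a higher gene. Of 8 outer root sheath genes 4 were lower, and of 5 dermal papilla genes 3. None of 5 endothelium and 4 red blood cell genes was called by edgeR or DESeq2, with 3 and 1 lower at an unadjusted p under 0.05. Of 7 adipocyte genes, 1 was higher, 1 lower and 5 not called. Krt14, a basal layer and outer root sheath keratin, was at 556, 524, 512 and 596 CPM in members and 2440, 2613, 2622 and 2655 CPM in other spots (-1.94 ± 0.06), with no overlap. Of 16 proliferation genes, 2 were lower and 0 higher (median -0.74), and with library size alone 11 were lower. Mki67 was at 47.3 ± 8.65 against 106 ± 9.07 CPM (-0.89), short of the fold for a call. Of 10 melanocyte genes, only Mitf, the lineage's master factor, was called (1.11 ± 0.08), at 60.1 ± 4.23 against 34.5 ± 2.78 CPM.

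The epidermis list held 1 exception. Of 7 epidermis genes tested, 6 were lower, among them Flg (-3.86) and Lor (-3.37), the filaggrin and loricrin genes. Ivl (involucrin, a crosslinked envelope protein) was at 654, 775, 736 and 623 CPM in members and 170, 155, 165 and 138 CPM in other spots (2.45 ± 0.06). The lowest member slice stood far above the highest slice of other spots. In the list of upper follicle and sebaceous genes, 6 of 10 were lower and Elovl3, a fatty acid elongase, was higher (2.16 ± 0.07). Fabp4, a fatty acid binding protein of adipocytes, was higher (1.32) while Car3, also abundant in adipocytes, was lower (-1.61). Nes (nestin), which the study set beside Krox20, was at 32.9 ± 3.68 against 17.5 ± 1.15 CPM (1.20 ± 0.09). With library size alone its log2 fold change was 0.90 and with thinned spots 0.78, which ended the call. Krox20 itself (Egr2 in the files) had a log2 fold change of -0.41 and was not called.

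By fold change over all other spots Lce3d, a late cornified envelope gene, led with a log2 fold change of 3.23 ± 0.16, at 30.1, 41.7, 21.2 and 6.59 CPM in members and 5.47, 4.95, 1.73 and 0.919 CPM in other spots. Slice 4 members were well below the other slices, although each slice's members exceeded its other spots. Krtap11-1 (3.01) came next, and Krtap13-1, Krt33a, Krt33b and Krt81 were also among the 15 genes with the largest fold changes. Of the rest, Add2, a cytoskeletal adducin (2.88), Bhlha9, a helix-loop-helix factor (2.83), Stfa2, a stefin protease inhibitor (2.82), Rnf182 (2.78), Engase, a cytosolic glycosidase (2.75), Snai3, a Snail family factor (2.73), Csdc2 (2.70), Idi2 (2.68) and Osbp2 (2.64) belonged to none of the lists. Engase was at 118, 151, 175 and 186 CPM in members and 28.7, 27.5, 32.8 and 24.3 in other spots. The lowest fold changes were those of Flg (-3.86), Tprg (-3.85), Fcgbp (-3.74), Car6, a secreted carbonic anhydrase (-3.71), the muscle genes Sln (-3.64) and Myot (-3.62), Lce1l (-3.57), Cpsf4l (-3.57), Clca3a2 (-3.56) and Spink12 (-3.55). Tprg was at only 1.27, 0.366, 0 and 0.507 CPM in members of slices 1 to 4. Over the alternatives its log2 fold change ranged from -8.58 to -1.96 and that of Sln from -5.69 to -2.29, with no call lost.

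Calls near the fold threshold depended on the scaling. Of the 148 genes called against all other spots that were listed or ranked, 30 lost the call in at least 1 alternative, 9 of them without 1 slice, and none changed sign. With library size alone the log2 fold change was 0.81 for Mitf, 0.96 for Wnt11, 0.86 for Tcf7, 0.78 for Nkd2, 0.77 for Grhl1, 0.87 for Tgm1, 0.99 for Padi1, 0.90 for Pkp3 and 0.96 for Txnrd1, which ended those calls. In that setting 7 of the high-sulfur KAPs and 4 of the WNT pathway genes were higher. With the top 15% of spots as members Bmpr1b was at -0.44 and Krt6a at -0.85, also no calls.

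Composition differed between members and the spots within 1 or 2 grid steps. Summed type I hair keratins were at 14367 ± 2555 CPM in members, 4754 ± 1283 in spots 1 step away, 3212 ± 828 at 2 steps and 2389 ± 1086 at 5 or more. IRS genes went down more gradually, from 66332 in members to 45779 ± 2217 at 1 step, 30451 ± 2080 at 2 steps and 15161 ± 3143 at 5 or more. Ultra-high-sulfur KAPs were at 5175 ± 1146 CPM in members, with a higher 6995 ± 960 at 1 step and 5869 ± 397 at 2 steps. This list therefore had its maximum outside the members. Proliferation genes were at 392 ± 55.04 CPM in members, 890 ± 59.0 at 1 step and 1045 ± 70.4 at 2 steps, and melanocyte genes at 537 ± 37.7 in members and 1166 ± 53.8 at 1 step. Muscle genes peaked at 3 steps (13499 ± 2409 CPM against 690 ± 249 in members), and fibroblast genes went from 1318 ± 282 in members to 29799 ± 2303 at 5 or more steps. These sums describe the neighbourhood and carry no test.

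**Figure D4:**
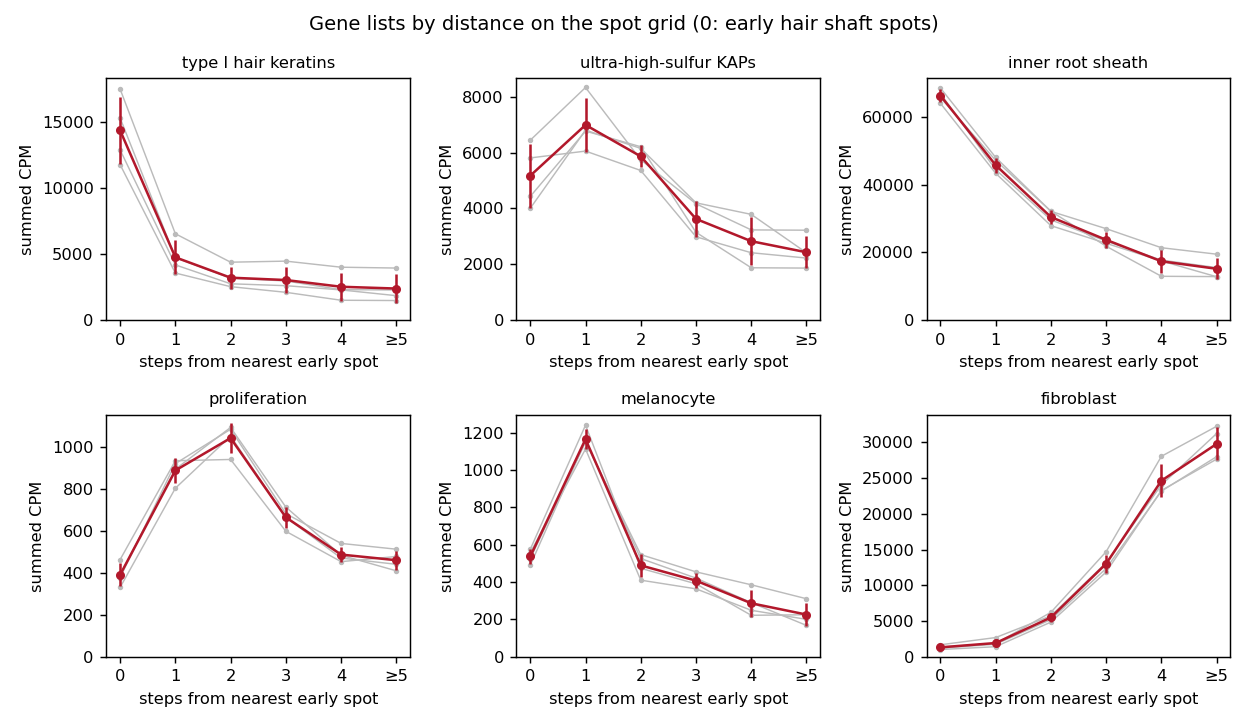
Summed CPM of 6 gene lists by grid steps to the nearest member (0 is the members themselves), with grey lines for the 4 slices and red for the mean ± SD. Type I hair keratins are at 14367 CPM in members and 4754 at 1 step, and melanocyte genes are highest at 1 step.

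The 1516 spots that touch a member were compared with the members in the same way. This comparison and those that follow share the same member spots with the one above. Of 11802 genes tested, 575 were higher (4.87%) and 225 lower (1.91%) in members, and with library size alone 340 and 515, so the share of higher calls went from 71.9% to 39.8%. Of the type I hair keratins 5 of 7 and of the type II 3 of 4 were higher. Krt33b (2.33) and Krt33a (2.28) had the largest fold changes in the family, and Krt84, at 0.51, was not called. Krt35 was at 346, 329, 386 and 352 CPM in members and 728, 837, 727 and 664 CPM in adjacent spots, each member slice below each adjacent slice, with a log2 fold change of -0.85 ± 0.06 that fell short of a call. Among KAPs, 6 of 15 high-sulfur and 2 of 15 high-glycine-tyrosine genes were higher. In the ultra-high-sulfur class Krtap17-1 was higher (1.17), Krtap5-4 (-1.02) and Krtap4-8 (-1.01) were lower, and 10 of 13 were not called.

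Signalling genes and transcription factors were counted against adjacent spots too. Of 26 WNT pathway genes 3 were higher (11.5%) and 2 lower, of 16 BMP pathway genes 2 (12.5%) and 1, and of 22 transcription factors 3 (13.6%) and 1, beside 4.87% of all genes higher and 1.91% lower. None of 14 Notch pathway genes was called by edgeR or DESeq2, with 1 higher and 7 lower at an unadjusted p under 0.05. Wnt3a (2.09 ± 0.16), Wnt3 (1.78) and Nkd1 (1.33) were higher, and Wnt10b (-1.27) and Wif1, a secreted WNT inhibitor (-1.20), were lower. Foxn1 (1.48), Prdm1 (1.31), Ovol1 (1.18) and Bmp2 (1.22) were higher and Msx1 (-1.06) was lower. Dnase1l2, at 428 ± 36.1 CPM in members and 119 ± 19.2 in adjacent spots, had a log2 fold change of 2.06 ± 0.06. Of the melanocyte genes, 4 of 10 were lower, namely Kit (-1.59), Mlana (-1.23), Dct (-1.10) and Tyr, and of 16 proliferation genes 6 were lower, including Top2a (-1.13) and Mki67 (-1.09). Dct, a melanin synthesis enzyme, was at 133, 139, 116 and 124 CPM in members and 330, 324, 303 and 324 CPM in adjacent spots, with no overlap. By fold change, Lce3d (2.86), Add2 (2.66), Idi2 (2.65), Slc38a3, a glutamine transporter (2.49), Krtap11-1 (2.45) and Engase (2.44) led, and Cartpt (-2.001, with slices that overlapped), Crabp1 (-1.98), Cldn10 (-1.78), Coch (-1.63), Mt1 (-1.62) and Kif11 (-1.61) were at the other end. Of the 77 called genes that were listed or ranked here, 28 lost the call in at least 1 alternative. Without slice 3 that held for Krtap5-4 (-0.89), Krtap4-8 (-0.86, and -0.96 without slice 4) and Tyr (-0.92, and -0.99 without slice 2), and without slice 1 for Msx1 (-0.95). The count of lower proliferation genes was 14 with library size alone and 2 with thinned spots, that of melanocyte genes 9 with the top 5% of spots and 1 with the top 15%, and that of ultra-high-sulfur KAPs 11 with thinned spots. Thinned spots ended the calls of Mki67 (-0.81), Dct (-0.91), Prdm1 (0.96) and Krtap17-1 (0.85).

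In all, 3 further sets of 642 spots were made in the same way from other gene scores, and their overlap with the members was counted. Of the members, 360 (56.1%; 51.4% to 58.3% by slice) were also in the top 10% of an IRS score of 7 genes. Only 48 (7.48%) were in the top 10% of a late hair shaft score of 17 ultra-high-sulfur KAPs, and 6 (0.935%) in that of a proliferating matrix score of 9 cell cycle genes. The remaining 246 (38.3%) were in none. Spots that share a set were left out of both sides of each comparison below. In mean distance from the epidermis landmark all 642 members, at 5.02 ± 0.232 steps, stood between matrix spots, at 6.43 ± 0.250, and late spots, at 3.58 ± 0.240, and IRS spots were at 4.82 ± 0.394, with the shared spots left out of the other sets only. Members not shared with IRS spots were at 4.90 ± 0.229. IRS spots touched a member in 81.1% of cases, late spots in 56.8%, matrix spots in 36.1% and all other kept spots in 26.4%.

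Against late hair shaft spots (594 spots on each side), members had more of several hair keratins and less of most KAPs. Of 9950 genes tested, 412 were higher (4.14%) and 635 lower (6.38%), and with library size alone the share of higher calls went from 39.4% to 50.5%. Krt31 was at 1823, 1924, 1293 and 750 CPM in members and 422, 370, 238 and 137 CPM in late spots (log2 fold change 2.21 ± 0.07). Krt33a (1.60), Krt33b (1.498), Krt36 (1.31) and Krt82 (2.00) were also higher. Krt81, at 1.03, was higher by little more than the fold needed for a call. Krt35 was at 357, 347, 387 and 364 CPM against 178, 135, 136 and 137, and its log2 fold change of 1.18 ± 0.08 was a call, which ended with thinned spots (0.93) and with the top 5% of spots as members (0.90). Krt84 went the other way, at 111, 84.3, 95.3 and 61.0 CPM against 352, 301, 363 and 331 (-2.06 ± 0.09), and Krt39 was also lower (-1.25), though not by DESeq2 (adjusted p = 0.055) or without slice 1 (-0.98). Krt34 (-0.25) and Krt86 (-0.32) were not called, and their slices overlapped.

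Late spots were chosen on ultra-high-sulfur KAPs, and KAPs that vary with those had to differ, so the counts are given as a description. Of 15 high-glycine-tyrosine KAPs, 13 were lower in members (median log2 fold change -2.96) and only Krtap8-1 and Krtap7-1 were not called. Of 15 high-sulfur KAPs, 11 were lower (median -1.59) and 2 higher. The higher ones were Krtap11-1, at 4534 ± 405 against 806 ± 199 CPM (2.39 ± 0.08), and Krtap13-1 (1.49). Krtap2-4, by contrast, was at 496, 415, 367 and 323 CPM in members and 3282, 3070, 3448 and 2784 CPM in late spots (-3.11 ± 0.07). Of the 6 lowest fold changes, 4 were those of genes named only by Gm numbers, Gm11596 (-4.32), Gm11595 (-4.23), Gm11568 (-4.20) and Gm11563 (-3.93), all inside the KAP cluster at chr11:99550130-99993994 (mm10). In that cluster 17 of 19 tested genes were lower in members, and in the cluster at chr16:88610705-89571183 22 of 29.

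Some regulators were higher in members than in late spots. Of 20 transcription factors tested, 8 were higher, 0 lower and 12 not called, among them Foxn1 (1.66), Lef1 (1.46), Msx2 (1.43), Msx1 (1.04) and Sox21 (1.04). Lef1, a WNT-responsive factor of the lower shaft, was at 26.1, 35.2, 42.9 and 33.2 CPM in members and 9.57, 9.63, 11.8 and 14.8 CPM in late spots. In the WNT pathway 8 of 22 genes were higher and 3 lower, with Wnt3a (2.74 ± 0.27), Nkd1 (2.09), Wnt3 (1.79), Wnt5a (1.51) and Axin2 (1.18) higher and Sfrp1 (-2.17) and Lgr5 (-1.07) lower. The calls of Msx1 (0.86 without slice 2, 0.98 without slice 3 and 0.93 without slice 4), Sox21 (0.92 without slice 4), Axin2 (0.99 without slice 3 and 0.95 without slice 4) and Lgr5 (-0.95 without slice 2) were lost when the named slice was left out. Of 17 BMP pathway genes 3 were higher and 3 lower, and none of 12 Notch pathway genes was called by edgeR or DESeq2, with 2 higher and 8 lower at an unadjusted p under 0.05. Melanocyte genes were higher in 7 of 8 cases, Dct at 132 ± 12.5 against 50.1 ± 10.5 CPM (1.27 ± 0.10). The count of higher melanocyte genes was 3 of 5 tested with thinned spots and 2 with the top 5% of spots. That of higher WNT genes was 5 in both settings, of 19 tested with thinned spots. Krt14 was lower (-2.86 ± 0.07), as were 5 of 7 outer root sheath genes and 4 of 6 epidermis genes. None of 16 proliferation genes was called by edgeR or DESeq2, with 1 higher and 1 lower at an unadjusted p under 0.05. At the ends of the ranking, Rab44 (3.05), Tagln3 (2.67), Avp (2.66), Engase (2.59) and Actbl2 (2.56) were highest beside Wnt3a, and Tprg (-4.35 ± 0.49) and Krtap6-3 (-3.93) were lowest beside the Gm genes. Tprg was at 0 CPM in members of slices 3 and 4.

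Against IRS spots (282 spots on each side), few genes differed. Of 8535 genes tested, 160 were higher (1.87%) and 28 lower (0.328%) in members. Hair keratins made up part of the difference, with 4 of 6 type I and 2 of 4 type II genes higher. Krt33b was at 3536, 2789, 2279 and 1531 CPM in members and 1149, 693, 635 and 431 CPM in IRS spots (log2 fold change 1.87 ± 0.06), and Krt81 at 4947 ± 755 against 1574 ± 243 CPM (1.70 ± 0.07). Neither overlapped. Krt33a (1.76), Krt31 (1.64), Krt34 (1.29) and Krt86 (1.27) were also higher, the last 2 not with the keratin score (0.96 and 0.88) or with the top 15% of spots as members (0.94 and 0.87), and Krt35, at -0.60, was not called. In the high-sulfur class 6 of 15 KAPs were higher, led by Krtap11-1 (1.88) and Krtap13-1 (1.88). That count was 2 with the keratin score and with the top 15% of spots, 3 with thinned spots, 4 without slice 2, and 10 with the score of genes that are not keratins. In the same comparison 0 of 13 ultra-high-sulfur KAPs were called by edgeR or DESeq2, with 2 higher and 5 lower at an unadjusted p under 0.05.

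Foxq1 (1.15) was the 1 transcription factor of 20 that was called against IRS spots, beside 1.87% of all genes higher, and its call was lost without slice 2 (0.999), with the top 15% of spots as members (0.88) and with the keratin score (0.93). Foxn1, at 245 ± 9.20 against 131 ± 7.94 CPM, fell short (0.95 ± 0.08). Wnt3 (1.55 ± 0.22) and Nkd1 (1.30, and 1.05 without slice 3, edgeR adjusted p = 0.050) were higher, whereas Wnt3a, at 6.28, 18.9, 14.5 and 28.7 CPM against 7.86, 12.3, 14.8 and 11.1, overlapped and was not called (0.59, edgeR adjusted p = 0.232). Wnt11 was lower (-1.20), though not by DESeq2 (adjusted p = 0.071) or with the top 5% of spots as members (-0.79). Ivl was at 869, 1002, 970 and 642 CPM in members and 248, 225, 274 and 278 CPM in IRS spots (1.80 ± 0.12). Dnase1l2 (1.51), Gprc5d (1.69), Psors1c2 (1.43) and Mt4 (1.29) were higher too. Bmp2 (1.03) was higher as well, but no call with library size alone (0.99), thinned spots (0.70), other scores or shares, or without slice 2 (0.99) or slice 4 (0.79). The largest fold changes were those of Add2 (2.77), Lefty1, a NODAL antagonist (2.70), Gm13178 (2.60), Snai3 (2.15), Cstdc5 (2.09) and Sprr1b, a cornified envelope gene (1.99). The lowest were those of Nkrf (-1.51), Kcnk16 (-1.45), Gm13490 (-1.43), Dsg1b (-1.36), Traf1 (-1.36) and Bco1 (-1.35). Of the 39 called genes that were listed or ranked, 16 lost the call in at least 1 alternative, among them Traf1 and Dsg1b without slice 1 or slice 3 (edgeR adjusted p between 0.062 and 0.095) and Bco1 without slice 1 or slice 4 (0.14 and 0.055).

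Proliferating matrix spots (636 spots on each side) differed most from members. Of 11300 genes tested, 1659 were higher (14.7%) and 1127 lower (9.97%) in members, and with library size alone the share of higher calls went from 59.5% to 38.3%. All KAPs tested were higher under both scalings, with median log2 fold changes of 3.01 over 14 high-glycine-tyrosine, 3.38 over 15 high-sulfur and 2.43 over 13 ultra-high-sulfur genes. All 4 type II and 5 of 6 type I hair keratins were higher, Krt81 at 4640 ± 462 against 362 ± 41.8 CPM (3.97 ± 0.08). Krt35 was again the exception, at 347, 331, 386 and 354 CPM in members and 470, 409, 451 and 481 CPM in matrix spots (-0.06 ± 0.07, edgeR adjusted p = 0.441). Wnt3a (3.14), Wnt3 (3.07), Prdm1 (2.61), Foxn1 (2.15) and Bmp2 (2.14) were higher. Lef1 was at 24.8, 32.6, 41.9 and 33.1 CPM against 72.9, 87.5, 102 and 97.9 (-1.15 ± 0.09, and -0.98 with the top 15% of spots as members, no call), and Msx1 (-2.005) and Wif1 (-2.18) were lower as well. Markers of other layers moved too: all 8 IRS genes (median 1.96), all 4 companion layer genes (2.24) and 4 of 7 outer root sheath genes were higher. All 7 muscle genes (-2.38) and 3 of 4 dermal papilla genes were lower.

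Of 9 melanocyte genes 1 was higher and 1 lower than in matrix spots (11.1% each way), beside 14.7% and 9.97% of all genes. Mitf was higher, at 60.8 ± 4.66 against 16.97 ± 3.53 CPM (log2 fold change 2.16 ± 0.12), whereas Kit, the receptor that melanoblasts need, was lower, at 5.29 ± 1.94 against 24.98 ± 3.59 CPM (-1.98 ± 0.19). Dct (-0.16) and Mlana (-0.05) did not pass the test. Matrix spots were chosen on cell cycle genes, and genes that vary with those had to differ, so it is a description that all 7 proliferation genes outside the matrix score were lower. The leading genes were Lce3d (4.97), Tcfl5 (4.39), Lce3c (4.23), Rptn, the repetin gene (4.23), Olr1 (4.12) and Krtap13-1 (4.10), and at the other end stood the metallothioneins Mt2 (-3.20) and Mt1 (-3.01), Myot (-3.04), Kif11, a mitotic kinesin (-3.03), Crabp1 (-2.98) and Hspb7 (-2.96). Mt1 was at 117, 107, 120 and 149 CPM in members and 1258, 1291, 1137 and 1134 CPM in matrix spots, while Mt4 of the same family was higher in members (2.42 ± 0.10).

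**Figure D5:**
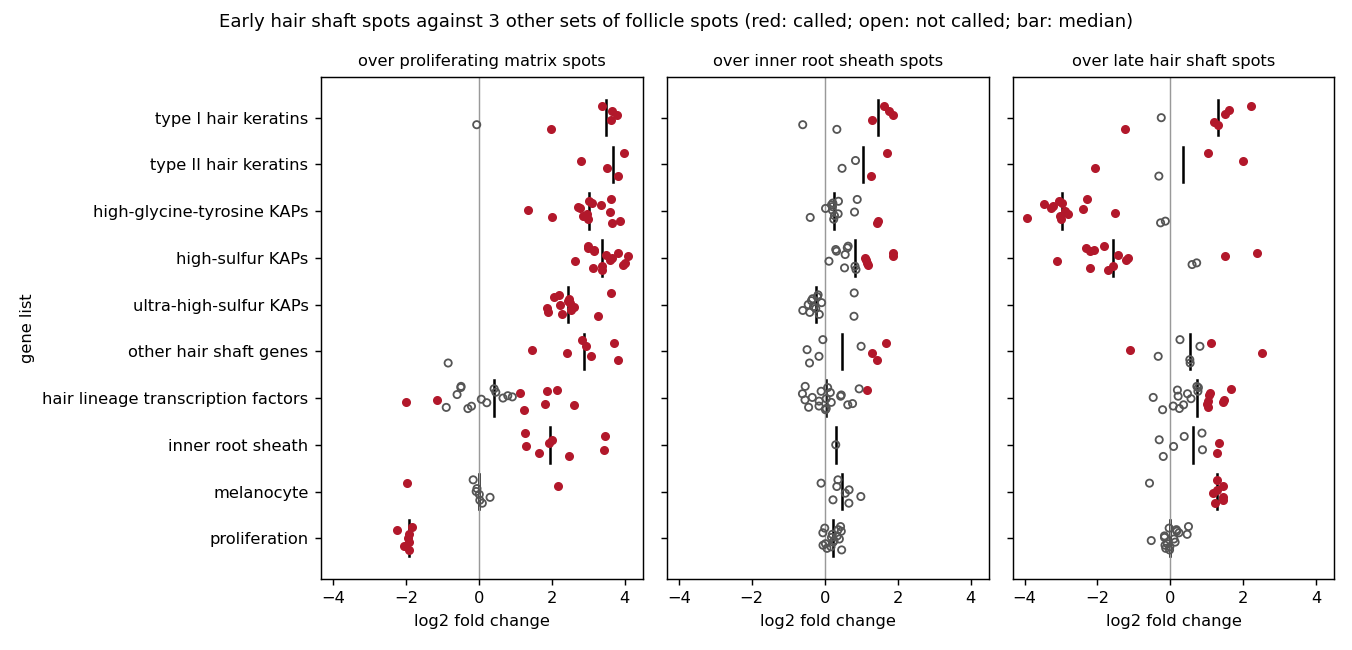
Log2 fold change of each tested gene in 10 lists, members over matrix spots, over IRS spots and over late hair shaft spots. KAP classes lie right of 0 against matrix spots and mostly left of 0 against late spots, and hair keratins lie mostly right of 0 in all 3 panels.

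The 5 comparisons share the member spots, and the next 3 genes were chosen after their values were seen. Wnt3 had log2 fold changes of 2.15 against all other spots, 1.78 against adjacent, 1.79 against late, 1.55 against IRS and 3.07 against matrix spots. Lef1 instead had -0.24, -0.89, 1.46, -0.54 and -1.15 in the same order, and Krt35 had -0.02, -0.85, 1.18, -0.60 and -0.06. These 2 genes were called higher in members against late spots and in no other comparison, and the Krt35 call ended with thinned spots.

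Members were also parted by the other scores. Those that were also IRS spots (360) had 13743 ± 1999 CPM of type I hair keratins and 20466 ± 3630 of high-sulfur KAPs, and those that were not (282) had 15357 ± 3408 and 26078 ± 8498. Summed IRS genes, which chose these groups in part, were at 74820 ± 2046 and 54084 ± 2772 CPM. The ranges of mean ± SD overlapped for keratins and KAPs, but both groups share the slices, and differences within slices were not tested. The late score was made of KAPs, so KAP sums chose the next groups in part. The 48 members that were also late spots had 47603 ± 19311 CPM of high-glycine-tyrosine KAPs and 16201 ± 4766 of type I hair keratins, against 20522 ± 6804 and 14250 ± 2404 in the other 594. They lay closer to the epidermis landmark, at 4.42 ± 0.398 against 5.06 ± 0.242 steps. These are descriptions, since each slice had only 6 to 19 of them.

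The share of members differed between parts of a slice. Each slice was parted into 3 strips at rows of muscle and epidermis spots, a division chosen after the data had been seen, and no label ties a strip to a mouse. Members were 10.5%, 11.9% and 7.26% of the kept spots of strips 1, 2 and 3, and the third strip had the lowest share in all 4 slices. Xist is the RNA of the inactive X chromosome. Of the UMIs of Xist and some Y chromosome genes together, Xist held 10.7%, 14.8% and 85.4% in the 3 strips. The median UMI count was 14453, 12696 and 11161. Of the genes called against all other spots, 941 of the 967 higher and 1320 of the 1323 lower had the same direction in all 3 strips. Foxn1, for one, was at 222, 255 and 246 CPM in members of the strips and 76.4, 76.8 and 70.3 CPM in other spots. Idi2 was less even, at 6.40, 17.3 and 3.37 CPM in members and 2.23, 2.50 and 1.58 CPM in other spots.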

How the data were processed

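Spatial transcriptomics (Visium, polyadenylated RNA) of 4 slices of P38 dorsal skin was used. The authors deposited UMI counts per spot and gene for 32286 features, with spot positions, made with Space Ranger 2.0.1, and the submitters' processing notes name mm10. Positions of genes came from GENCODE M21 (GRCm38), matched by identifier for 32235 features, and promoters from RefSeq GRCm38.p6. CreERT was not analysed here. Of 6420 spots over tissue, 9 with under 250 genes were left out, and doublets were not called because spots mix cells.

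Members and gene lists were chosen with earlier results of these data known. Counts were summed by slice and set of spots, filtered with filterByExpr, scaled by TMM and tested in edgeR 4.0.16 (R 4.3.3) with the slice as a block, since both sets of a slice come from the same sections. Residuals of the paired sums correlated by 0.06 to 0.24 over 13576 genes. The adjustment was Benjamini-Hochberg over all genes tested. Score genes of both sets were left out of the tested genes, and shared spots were left out of both sets. On simulated counts for the comparison with all other spots (13380 genes, 200 changed by 1.5 on the log2 scale), 99% of changed genes were recovered. The changes were split evenly between higher and lower, with no slice effect, and were far fewer than the calls in the data. The simulation therefore cannot test the choice of scaling.

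Ranked genes were called, had 1 direction in 4 slices and at least 10 CPM in the higher set: the 15 largest and 10 lowest fold changes against all other spots, 6 and 6 in each other comparison. List examples had no CPM minimum, and Krt39 and Padi2 are below it. Examples for which the report gives values below the call rule were taken from the lists for contrast, after their values had been seen. Proteins that the plan named were not used here. Alternatives were DESeq2 1.42.0, library size alone, no low-count filter, no block, thinned spots, other spot filters, scores and shares, leaving out each slice, and strips, of which those across the tissue were chosen once the data had been looked at. UMI intervals would cover counting error only, and sums per set and slice in the main comparisons held 896956 to 23752549 UMIs.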

Additional observations from a re-analysis of the deposited data

Results flagged for a closer look

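Of 81 values tested for a slice far from the others, 1 stood out. The median number of genes per member spot was 4168 in slice 1 and between 3710 and 3750 in the other slices, a gap of 0.913 of the range, past the limit of Dixon's test for 4 samples. Chance alone puts about 1 group in 20 past that limit. Slice 1 also had the most UMIs, and the part of depth in this value was not tested.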

How the results depend on the processing

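No call of a listed or ranked gene and no distance changed sign under the alternatives run, and 164 alternative values for counts, levels and distances stayed within their limits. With library size alone lower calls outnumbered higher ones against adjacent and matrix spots, where TMM gave more higher calls, and the median of WNT genes went from 0.10 to -0.20. The others follow, as genes called in members. With library size alone the counts were 580 higher and 2147 lower against all other spots, 340 and 515 against adjacent spots, and 1214 and 1959 against matrix spots. Thinned spots gave 361 higher and 148 lower against adjacent, 409 lower against late, and 94 higher and 7 lower against IRS spots. Strips across the tissue, added after the data had been seen, gave 773 lower against all other spots, 118 lower against adjacent, 222 higher and 368 lower against late, 94 and 9 against IRS, and 744 lower against matrix spots, and strips along the grid axis gave 794, 98, 242 and 384, 102 and 9, and 668. Strip sums hold fewer UMIs, and the cause was not tested. Against IRS spots, DESeq2 called 12 lower (128 higher), no low-count filter 43 lower, and members as the top 5% 258 higher. Landmarks of the top 5% put members 1.05 steps farther from the epidermis than other spots (1.20 as reported), and with landmark spots left out of both sets, a choice made after seeing the data, the differences were 0.73 to the epidermis and -1.40 to the muscle (-0.93 as reported). Without the replicate block, 961 genes were higher and 1309 lower against all other spots. No total of higher or lower calls in a comparison moved by over 1.5 times in that setting. Some list counts did. Against late spots, higher type II hair keratins went from 2 to 1 and lower immune genes from 1 to 2. Lower muscle genes there went from 0 to 1. Leaving out each slice gave 915 to 1001 higher and 1209 to 1355 lower against all other spots. For 41 genes named against all other spots, 684 alternative values kept their side of the threshold and 8 lost it, 2 for Nes and 6 for Krt84: 0.90 and 0.78 (library size, thinned) for Nes, and 0.76 (library size), 0.84 (keratin score), 1.00 (strips across the tissue), 0.75 (top 5%), 0.89 (without slice 1) and 0.99 (without slice 2) for Krt84. Among called genes that were listed or ranked, 28 of 77 against adjacent, 28 of 113 against late, 16 of 39 against IRS and 18 of 166 against matrix spots lost the call in at least 1 alternative. Stfa2 and Idi2 were not tested in either strip setting, nor Lce1l in strips along the grid axis. With 3 mice not told apart by label, no value covers the spread between mice.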
